A study of Mus musculus with 6 samples.

Results

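The genes described are 10 feedback regulators and targets of the JAK-STAT pathway, chosen by gene symbol and counted wherever they were measured: Pim1, Pim2, Socs3, Socs1, Socs2, Cish, Bcl3, Stat3, Junb and Mcl1. All 10 were present among the 32285 genes in the count matrices. They were followed in c-Kit-enriched bone marrow cells of female BALB/c mice, 10 weeks of age at harvest, by single-cell RNA sequencing. The 3 groups of 3 mice were non-tumor-bearing and untreated (NTB), bearing the 4T1 mammary carcinoma and injected daily with DPBS (vehicle), or bearing 4T1 and injected daily with brequinar at 10 mg/kg (BRQ). Treatment ran for 2 weeks, from the time when tumors could first be measured. Brequinar inhibits dihydroorotate dehydrogenase, an enzyme of pyrimidine synthesis. Each of 3 pools held 1 mouse of each group, told apart by a hashtag antibody per group, so that 9 mice were compared. No group of tumor-free mice given brequinar was analysed here, and the enrichment for c-Kit, the receptor of stem cell factor, sets which marrow cells were seen. The question put to these genes was whether the tumor raised them in marrow progenitors, above all Pim1, and whether the drug lowered what the tumor had raised.

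In JAK-STAT signaling, a cytokine such as G-CSF, GM-CSF or IL-6 brings JAK kinases together on its receptor. The kinases phosphorylate STAT factors, which enter the nucleus and switch on a short list of immediate target genes. Several of these targets close a feedback loop: SOCS3, SOCS1, SOCS2 and CIS (the product of Cish) bind receptors or JAKs and damp the signal. Others carry the growth and survival output, among them the serine/threonine kinases PIM1 and PIM2, the anti-apoptotic BCL-2 family protein MCL1, the NF-kB cofactor BCL3 and the AP-1 factor JUNB. Stat3 is a target of its own protein. In the marrow, STAT3 is best known downstream of G-CSF and IL-6 in granulopoiesis, and STAT5 downstream of GM-CSF, IL-3 and erythropoietin.

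STAT dimers bind a palindrome, TTCNNNGAA, which reads the same on both strands; TTCCNGGAA is a narrower form of it and is counted within it. RefSeq promoter windows on GRCm38.p6 (250 bases before to 50 bases after each annotated start) were found for 9 of the 10 genes, with 2 windows for Pim1, and none for Socs2. Of these 10 windows, 2 held TTCNNNGAA, those of Socs3 and Cish. Among all 32851 windows, 8.3% held it and 1.15% held TTCCNGGAA. The stretches around the matches are shown because Socs3 carries the largest change under the tumor below and Cish is the other feedback gene with the palindrome. Each is written 5′ to 3′ on the strand of the gene, with the matches in capitals. They lie at chr11:117969502-117969531 (minus strand) and chr9:107296654-107296683 (plus strand).
Socs3: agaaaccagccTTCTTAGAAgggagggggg
Cish: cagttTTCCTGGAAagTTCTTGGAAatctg
The Socs3 match begins 154 bases before the RefSeq start of its window, and the pair in Cish begins at the RefSeq start itself and 11 bases after it. In GENCODE M21 on GRCm38, Socs3 spans 117966079 to 117970047 and Cish 107296026 to 107302784. By that annotation the matches lie inside both genes. The first Cish match is also TTCCNGGAA. A match is a run of letters and not a measured binding site. Pim1 lies on chromosome 17 (29490753 to 29496112, plus strand, GENCODE M21 on GRCm38), and neither of its windows held the palindrome.

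The 3 pools held between 11441 and 14297 barcodes, and 15966 cells passed the filters and carried a single hashtag, between 382 and 2780 per mouse. Pairs of pools shared between 38 and 48 barcode sequences. HTODemux left between 33.1% and 52.19% of barcodes without a hashtag, more often in erythroid/MEP-like (70.0%) and neutrophil-like (53.7%) cells than in GMP-like cells (30.7%), so levels describe the cells that could be given to a mouse. Clusters were named from marker genes, and the members were left out of the genes used to cluster. The clusters held cells with little Kit as well as progenitors: the median Kit level over mice was 220.3 CPM (UMI counts scaled to a total of 1000000) in HSC/MPP-like cells, 68.5 CPM in GMPs and 9.45 CPM in neutrophil-like cluster 4. The BRQ mouse of pool 3 had the highest Pim1 of the BRQ mice in every class tested, and the differences in Pim1 between BRQ and vehicle are therefore also given without it. Vehicle against NTB and BRQ against vehicle share the vehicle mice, so that their values are not independent.

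Across cell classes, Pim1 was highest in cells resembling hematopoietic stem cells and multipotent progenitors (HSC/MPP-like). Its mean over mice with at least 20 cells of the class, on the CPM scale with each class scaled to its own total, was 499.8 ± 173 (SD, n = 8 mice) in HSC/MPP-like cells. The next levels of Pim1 were 268.8 ± 121 CPM in basophil/mast/eosinophil-like (n = 7), 247.2 ± 182 CPM in neutrophil-like (n = 9) and 231.1 ± 31.9 CPM in pro/pre-B-like cells (n = 3). These 3 classes did not differ beyond their spread, which includes the 3 groups of mice. Lower levels of Pim1 followed, 124.2 ± 79.9 CPM in monocyte/MDP-like (MDP, monocyte-dendritic cell progenitor), 102.1 ± 63 CPM in GMP-like, 80.2 ± 62.9 CPM in macrophage-like and 63.9 ± 26.9 CPM in erythroid/MEP-like cells, again within the spread of their neighbors. These means pool the 3 groups, except that no NTB mouse had enough pro/pre-B-like cells. In NTB mice alone, Pim1 stood at 331.2 ± 92.4 CPM in HSC/MPP-like cells (n = 3), 120.7 ± 36.7 CPM in basophil/mast/eosinophil-like cells (n = 2) and 59.8 ± 1.31 CPM in neutrophil-like cells (n = 3), and between 40.8 and 57.4 CPM in the other 4 classes that had enough cells. Stromal/endothelial-like cells numbered 1 to 5 per mouse and gave no level.

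Among the feedback genes, Socs3, Socs2 and Cish were highest in different classes. Socs3 reached 52.7 ± 53.4 CPM in neutrophil-like cells and 12.4 ± 10.9 CPM in HSC/MPP-like cells, and was between 0.987 and 6.01 CPM in the other 6 classes. In NTB mice alone this order of Socs3 was not seen, with 2.09 ± 1.91 CPM in neutrophil-like cells (23 counts) and 2.38 ± 0.934 CPM in HSC/MPP-like cells (8 counts). Socs2 was highest in pro/pre-B-like cells (86.4 ± 34.6 CPM, n = 3 mice, none of them NTB, 37 counts in all), followed by HSC/MPP-like cells at 12.4 ± 5.5 CPM, while neutrophil-like cells held 2 counts over 9 mice. Cish stood at 11.1 ± 3.2 CPM in HSC/MPP-like cells with 115 counts, and at 0.423 ± 0.233 CPM in GMP-like cells. Pim2 had its highest level, 20.5 ± 10.4 CPM, in HSC/MPP-like cells. The levels of Socs1 stayed between 0.984 and 7.18 CPM in all 8 classes. With so few counts in most classes, a level near 0 says only that the gene was not detectable at this depth. Over the 8 class means (log2 of CPM + 1), the genes with the pattern most like Pim1, among 5195 with at least 20 CPM in GMPs, were Satb1 (Pearson r = 0.94), Phf21a (0.93), Akap13 (0.92), Smad7 (0.92) and Tes (0.91). The 8 points come from the same libraries, differ in depth, and are a description only.

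**Figure D1:**
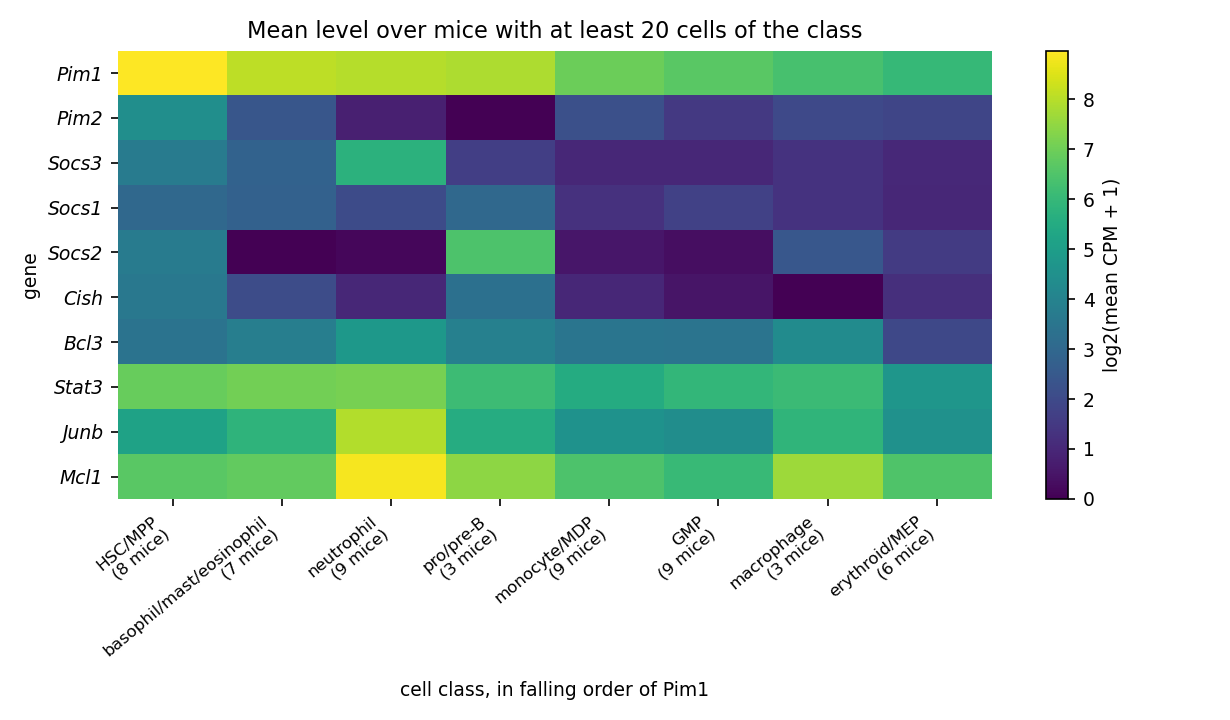
Heat map of log2(mean CPM + 1) of the 10 genes (rows) in 8 cell classes (columns, in falling order of Pim1), averaged over the mice with at least 20 cells of the class. Pim1 is brightest in HSC/MPP-like cells (499.8 CPM), Socs3 in neutrophil-like cells (52.7 CPM) and Socs2 in pro/pre-B-like cells (86.4 CPM).

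Granulocyte-monocyte progenitors (GMPs) were taken by the level of Ms4a3, a gene of committed granulocyte and monocyte progenitors. The cut was made on log-normalised counts over all singlets, whereas the study cuts scaled values after annotating cells, so the cells taken here need not be the same. There were 3916 GMPs, between 88 and 1017 per mouse, with 998154 to 16074010 summed counts. In GMPs 6 of the 10 genes passed the filter on low counts: Pim1, Bcl3, Junb, Mcl1, Stat3 and Socs1. The other 4 were too sparse to test, with at most 28 counts of Socs3, 21 of Pim2, 7 of Cish and 6 of Socs2 in any mouse. Against NTB mice, the vehicle mice had more Pim1, Bcl3 and Junb, so that 3 of the 6 tested genes were called, all higher, where 11.3% of all 10331 tested genes were called (edgeR quasi-likelihood test on counts summed per mouse, Benjamini-Hochberg adjusted p under 0.05). The median log2 fold change of the 6 was 0.73, and that of all tested genes was -0.01. GMPs are told by 1 gene here. GMP-like cluster 2 held 34.1%, 38.5% and 29.4% of the GMPs of the NTB mice and 19.2%, 21.1% and 22.5% of those of the vehicle mice. In BRQ mice it held 29.8%, 25.9% and 26.3%, above every vehicle mouse. Each GMP-like cluster was therefore also tested alone.

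Pim1, the kinase that supports growth and survival downstream of STAT3 and STAT5, measured 40.3, 55.2 and 66.9 normalised CPM in the NTB mice of pools 1, 2 and 3. The vehicle mice gave 144.2, 97.2 and 144.6 CPM. The groups did not overlap, as in 28.4% of all tested genes. Within every pool Pim1 was higher in vehicle than in NTB, by 3.58, 1.76 and 2.16 times. The log2 fold change was 1.23 (SE 0.29, 95% interval 0.63 to 1.84, adjusted p = 0.00775). Without the NTB mouse of pool 2 the adjusted p was 0.0505 at a log2 fold change of 1.22, with DESeq2 it was 0.057, and with the cell limits read as UMIs it was 0.275. Within the GMP-like clusters 1, 2 and 3 taken alone, Pim1 was called higher in vehicle each time, by 1.42, 1.61 and 1.48 on the log2 scale (adjusted p = 0.00117, 0.000369 and 0.000642), and in the 3 clusters together (5608 GMP-like cells) by 1.55 (SE 0.28, adjusted p = 0.000673).

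Bcl3, a nuclear IkB family protein that acts with NF-kB p50 and p52, gave 1.09, 8.78 and 7.70 CPM in NTB mice, 1.09 being a single count. It gave 15.7, 9.40 and 14.6 CPM in vehicle mice. The log2 fold change was 1.11 (SE 0.32, adjusted p = 0.0273). Junb, an immediate AP-1 factor, rose from 9.81, 15.1 and 18.8 CPM to 26.5, 35.7 and 21.2 CPM, a log2 fold change of 0.75 (SE 0.23, adjusted p = 0.0338). The groups did not overlap for either gene, as in 28.4% of all tested genes, but neither call held without each mouse in turn. Leaving out NTB mouse 1, 2 or 3 or vehicle mouse 1 ended the call of Bcl3 (adjusted p from 0.0505 to 0.132). Leaving out any of these or vehicle mouse 2 ended that of Junb (adjusted p from 0.0544 to 0.122). In the more numerous GMP-like cells, Bcl3 (1.23, adjusted p = 0.000638) and Junb (0.63, adjusted p = 0.00445) were also called, and there both calls held without any 1 mouse. With the GMP-like clusters 1, 2 and 3 taken alone, Bcl3 was called in each, by 1.32, 1.22 and 1.26 on the log2 scale (adjusted p = 0.00805, 0.015 and 0.0189). Junb was called in cluster 2 (0.89, adjusted p = 0.0251) and not in cluster 1 (0.40, adjusted p = 0.242) or cluster 3 (0.64, adjusted p = 0.0598). Mcl1 gave 73.7 ± 7.91 CPM in vehicle against 61.5 ± 3.86 CPM in NTB (n = 3 each), a log2 fold change of 0.30 that was not called (adjusted p = 0.0935). Stat3 differed by 0.04 (SE 0.11, adjusted p = 0.886) and Socs1, with 0 to 48 counts per mouse, by 0.72 (SE 0.63, adjusted p = 0.519).

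**Figure D2:**
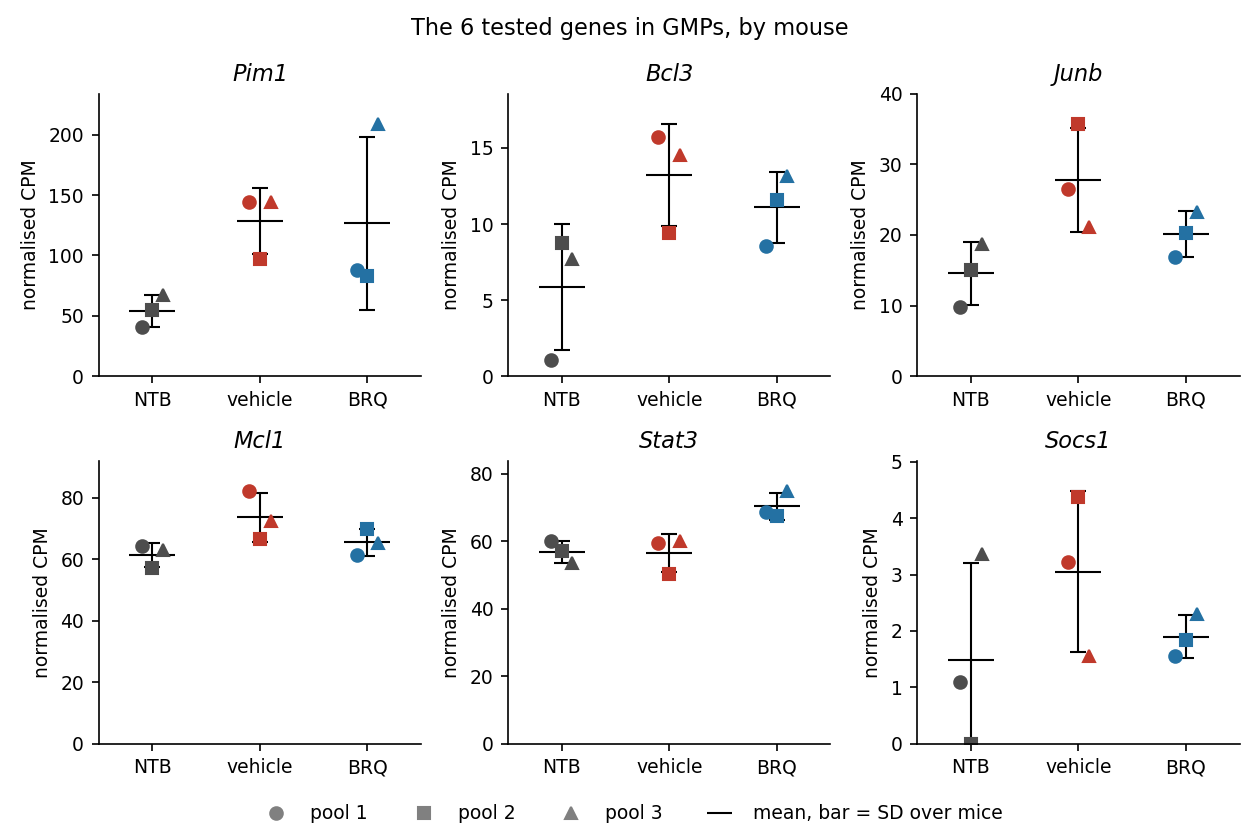
Normalised CPM of the 6 tested genes in GMPs for each of the 9 mice, by group, with symbols for the pool and with the mean and SD over 3 mice. Pim1, Bcl3 and Junb of the vehicle mice lie above those of the NTB mice, Stat3 of the BRQ mice lies above the other groups, and 1 BRQ mouse reaches 209.1 CPM of Pim1.

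In the comparison of all 9 mice, Pim1 in GMPs was not called between BRQ and vehicle. The BRQ mice of pools 1, 2 and 3 gave 88.0, 82.7 and 209.1 CPM of Pim1. Pools 1 and 2 lay below every vehicle mouse, and pool 3 lay above all of them. Within pools, Pim1 in BRQ was 0.61, 0.85 and 1.45 times that of the vehicle mouse. The log2 fold change of BRQ against vehicle was -0.06 (SE 0.22, 95% interval -0.52 to 0.40, adjusted p = 0.907). Without the BRQ mouse of pool 3, Pim1 fell by 0.63 on the log2 scale (SE 0.11, adjusted p = 8.83e-05), while without the BRQ mouse of pool 1 or 2 the difference was 0.15 or 0.16 and not called. The mouse of pool 3 was singled out after its Pim1 level was seen, so values without it show how far a result rests on 1 mouse and are no separate test of the drug. Against NTB, Pim1 in BRQ mice was higher by 1.17 on the log2 scale (SE 0.29, adjusted p = 0.0153), a call lost with DESeq2 (adjusted p = 0.0945), with the cell limits read as UMIs (adjusted p = 0.383) and without NTB mouse 1 or 2 (adjusted p = 0.0848 and 0.101). In GMPs the NTB mouse of pool 1 had the highest summed GMP, neutrophil, macrophage and T/NK markers of the 9 mice (48060, 50530, 312.6 and 1343 CPM). The BRQ mouse of pool 3 was likewise the extreme of the 9 mice in 5 of 13 marker lists, so such a count does not single it out. Its summed GMP markers (37930 CPM, others 42950 to 48060), macrophage markers (65.6 CPM, others 155.3 to 312.6) and T/NK markers (963.5 CPM, others 1018 to 1343) were the lowest. Its monocyte/MDP markers (151.6 CPM, others 54.9 to 121.8) and dendritic cell markers (54.2 CPM, others 25.3 to 49.1) were the highest. Its median UMI count per GMP was 15795, against 12168.5 and 12377.5 in the other BRQ mice and 14737 to 17966 in vehicle mice, and the part of these differences in its Pim1 level was not tested.

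Of the 6 tested genes, 1 was called between BRQ and vehicle in GMPs, where 13.4% of all tested genes were called. It was Stat3, higher in BRQ at 68.8, 67.4 and 74.8 CPM than in vehicle at 59.3, 50.1 and 60.0 CPM (log2 fold change 0.28, SE 0.09, adjusted p = 0.0346). The groups did not overlap, as in 30.7% of all tested genes, yet the call was lost in 12 alternatives and kept in 9. It was lost under DESeq2 (adjusted p = 0.0797), when low counts were kept (0.0608), with hashtags called by tag ratio (0.281), with the cell limits read as UMIs (1), with an Ms4a3 limit of 2.5 (0.0616), in clusters 1 and 2 alone (0.22 and 0.233), without BRQ mouse 1 or 3 and without any 1 of the vehicle mice (adjusted p from 0.0593 to 0.126). Junb was lower in BRQ at 20.1 ± 3.21 CPM against 27.8 ± 7.36 CPM (n = 3 each), with a log2 fold change of -0.37 that was not called (SE 0.15, adjusted p = 0.101). With the pool as a block, the difference in Junb was called (log2 fold change -0.42, adjusted p = 0.0152), and 2 of the 6 genes were called instead of 1, while the share over all tested genes went to 20.4%. Junb was also called when low counts were kept (-0.38, adjusted p = 0.0333) and without vehicle mouse 3 (-0.51, adjusted p = 0.043). Bcl3, Mcl1 and Socs1 had log2 fold changes of -0.38, -0.21 and -0.57, none called (adjusted p from 0.14 to 0.351). Mcl1 was called with hashtags assigned by tag ratio (-0.33, adjusted p = 0.0174). Without the BRQ mouse of pool 3, 3 of the 6 genes were called lower in BRQ, namely Pim1, Junb (-0.47, adjusted p = 0.0211) and Bcl3 (-0.53, adjusted p = 0.0462), with 14.8% of all tested genes called. Stat3 then was not called (0.25, adjusted p = 0.0593). Between BRQ and NTB, 1 of the 6 genes was called, Pim1, against 6.01% of all tested genes, and with the pool as a block Stat3 was also called (log2 fold change 0.33, adjusted p = 0.0321), with 11.8% of all tested genes. In the more numerous GMP-like cells, Stat3 was called higher in BRQ than in vehicle, the 1 call of 7 tested genes, against 13.2% of all tested genes. That call was kept in 12 alternatives and lost in 3. Stat3 was also called higher in BRQ than in NTB there, a call kept in 8 alternatives and lost in 7.

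**Figure D3:**
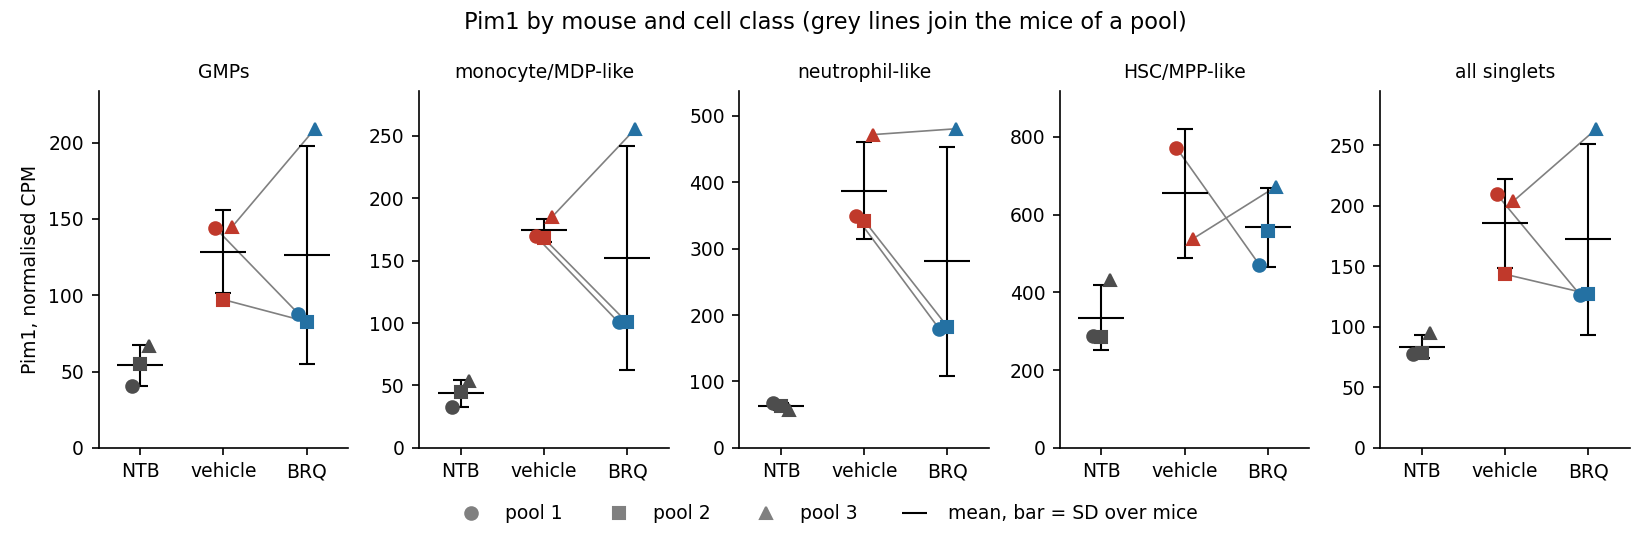
Normalised CPM of Pim1 for each mouse in GMPs, 3 other cell classes and all singlets, by group, with the mean and SD. Grey lines join the vehicle and BRQ mice of a pool: they fall in pools 1 and 2, where both mice were measured, and rise in pool 3 in each panel.

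In monocyte/MDP-like cells (cluster 5, 1614 cells, 37 to 341 per mouse) Pim1 rose under the tumor. NTB mice gave 32.4, 44.6 and 53.8 CPM of Pim1, vehicle mice 169.7, 167.9 and 185.1 CPM and BRQ mice 100.5, 100.6 and 255.6 CPM. The vehicle mice were close together and far above NTB, while the BRQ mice again split into a pair below vehicle and the mouse of pool 3 above it. The log2 fold change of vehicle against NTB was 1.93 (SE 0.28, adjusted p = 0.000133). Pim1 was the only call among 5 tested genes, with 4.16% of all tested genes called, and Stat3 (0.51, adjusted p = 0.104), Bcl3 (0.55, adjusted p = 0.377), Junb (0.12, adjusted p = 0.819) and Mcl1 (0.03, adjusted p = 0.933) were not called. Stat3 joined Pim1 without the BRQ mouse of pool 3 (0.51, adjusted p = 0.0462), with 4.97% of all tested genes called. It also did so when low counts were kept (0.53, adjusted p = 0.0409), where 2 of all 10 genes and 3.06% of all genes were called. For BRQ against vehicle Pim1 had a log2 fold change of -0.18 (95% interval -0.59 to 0.23, adjusted p = 0.695). In that comparison 0 of the 5 genes were called with edgeR and 0 with DESeq2, and 5.45% of all tested genes were called. An unadjusted p under 0.05 was found for 2 of the 5 genes and for 1796 of all 9491 tested genes. Without the BRQ mouse of pool 3, Pim1 fell by 0.80 (SE 0.11, adjusted p = 1.18e-05), the 1 call among the 5 genes, with 4.83% of all tested genes called. BRQ exceeded NTB in Pim1 by 1.75 on the log2 scale (SE 0.27, adjusted p = 0.000162), the 1 call of 5 genes, with 3.15% of all tested genes called. In that comparison 4 of the 5 genes had an unadjusted p under 0.05, as had 1412 of all 9491 tested genes. Stat3 (0.45, adjusted p = 0.154) was also called when low counts were kept (0.49, adjusted p = 0.0473) and without BRQ mouse 2 (0.57, adjusted p = 0.0396). The summed neutrophil markers of this class were between 1582 and 2444 CPM, with the groups overlapping. Of 13 marker lists summed in this class, 2 (erythroid/MEP and macrophage) were lower in every vehicle than in every NTB mouse, and 4 were higher in every BRQ than in every vehicle mouse. The 10 HSC/MPP markers, of which up to 3 were at 0 in a mouse, summed to 292.9 to 304.4 CPM in BRQ, above the 188.1 to 231.7 CPM of vehicle and 209.9 to 245.9 CPM of NTB mice. The 10 T/NK markers, up to 9 at 0, summed to 226.2 to 243.0 CPM in BRQ, 119.1 to 192.1 CPM in vehicle and 174.5 to 204.0 CPM in NTB mice. The 8 GMP markers (24330 to 26600 against 20730 to 24290 CPM) and the class's own 8 markers (2138 to 2339 against 1699 to 2088 CPM) were also higher in BRQ than in vehicle, and the part of these in the results of the class was not tested.

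The HSC/MPP-like class (cluster 8) had 10 cells in the vehicle mouse of pool 2, so that mouse was left out and the class was compared over 8 mice, 2 of them vehicle. All 10 genes could be tested here. In vehicle against NTB, 3 of the 10 were called, all higher, against 0.773% of all tested genes. Of these, Socs3 and Bcl3 were under the low-count cutoff of 7 CPM in every NTB mouse, with 1 to 6 counts each, and were tested only because they were high in the tumor-bearing mice, while Pim1 was over it in all 8 mice. The count of 3 is therefore not read as support. Pim1 rose from 287.5, 285.3 and 432.1 CPM in NTB to 772.0 and 537.7 CPM in vehicle (log2 fold change 0.97, SE 0.15, adjusted p = 0.000233). The groups did not overlap in Pim1, as in 24.2% of all tested genes. Socs3, the feedback inhibitor of the G-CSF and IL-6 receptors, rose from 1.57, 2.30 and 3.32 CPM to 21.6 and 24.6 CPM (log2 fold change 3.04, SE 0.55, adjusted p = 0.0013). Bcl3 rose from 3.14, 3.45 and 3.98 CPM to 13.4 and 16.4 CPM (log2 fold change 1.92, SE 0.47, adjusted p = 0.0314). Pim2 was at 12.3 ± 1.18 CPM in NTB and 32.1 ± 15.5 CPM in vehicle, a difference of 1.06 that was not called (adjusted p = 0.133), and Junb differed by 0.86, also not called (adjusted p = 0.095). Stat3 and Mcl1 differed by 0.34 and -0.07 (adjusted p = 0.412 and 0.918). Cish, Socs1 and Socs2, the other SOCS family genes, had log2 fold changes between -0.47 and 0.07 (adjusted p from 0.782 to 0.986).

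Between BRQ and vehicle, 0 of the 10 genes were called in HSC/MPP-like cells with edgeR, and 0.0198% of all tested genes were called. An unadjusted p under 0.05 was found for 0 of the 10 genes and for 443 of all 10085 tested genes. DESeq2 was not run on this class. Pim1 measured 470.5, 558.1 and 671.9 CPM in BRQ mice, a log2 fold change of -0.24 (95% interval -0.53 to 0.06). The Socs3 level of the BRQ mouse of pool 3, 28.1 CPM, was above both vehicle mice, and those of pools 1 and 2, 9.48 and 7.98 CPM, were below them. Without the mouse of pool 3, Pim1 and Socs3 had log2 fold changes of -0.38 and -1.34, neither called (adjusted p = 0.999 and 0.357). Against NTB, Pim1, Socs3 and Bcl3 were called higher in BRQ, 3 of 10, where 1.4% of all tested genes were called. Socs3 and Bcl3 were tested on the same terms as above, so this count is not read as support. Without the mouse of pool 3 Socs3 was no longer called in that comparison (log2 fold change 1.70, adjusted p = 0.143). The summed neutrophil markers in these cells were 1131 to 5090 CPM in NTB, 1320 and 2660 CPM in the vehicle mice compared, and 1504 to 2127 CPM in BRQ, with the highest value in an NTB mouse. The 10 HSC/MPP markers of the class, none at 0, summed to 1872 to 2097 CPM in NTB, 1640 and 1749 CPM in vehicle and 1745 to 1851 CPM in BRQ mice. The 10 erythroid/MEP markers, of which up to 3 were at 0, summed to 257.6 to 299.2 CPM in NTB, 169.8 and 203.0 CPM in vehicle and 133.7 to 212.3 CPM in BRQ mice. Both sums were higher in every NTB mouse than in any tumor-bearing mouse compared. Between BRQ and vehicle 2 of 13 lists did not overlap, the macrophage markers at 4.38 to 20.4 against 28.7 and 38.1 CPM and the stromal/endothelial markers at 19.7 to 27.0 against 18.5 and 19.3 CPM. The part of these sums in the results of the class was not tested.

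In the neutrophil-like class (3473 cells, 87 to 871 per mouse) all 6 tested genes were called higher in vehicle than in NTB, against 33% of all tested genes. Bcl3 and Socs3 were under the low-count cutoff of 7.45 CPM in every NTB mouse and were tested only because they were high in the tumor-bearing mice, so the count of 6 is not read as support. Pim1, Junb, Mcl1 and Stat3 were over it in all 9 mice. With low counts kept, the same 6 of 10 genes were called, where 18.7% of all genes were. Socs3 was at 0, 3.93 and 2.47 CPM in NTB mice and at 59.0, 125.4 and 127.7 CPM in vehicle mice (log2 fold change 5.17, SE 0.53, adjusted p = 1.17e-05). Junb went from between 19.9 and 31.9 CPM to between 335.3 and 491.5 CPM (log2 fold change 4.05, SE 0.31, adjusted p = 4.89e-06). Bcl3 and Mcl1 rose by 3.39 (SE 0.39) and 2.64 (SE 0.27), and Stat3 by 1.24 (SE 0.22). Pim1 gave 67.4, 63.3 and 57.4 CPM in NTB and 348.6, 342.4 and 471.9 CPM in vehicle, a log2 fold change of 2.66 (SE 0.34, adjusted p = 5.8e-05). No vehicle mouse overlapped an NTB mouse in any of the 6 genes, as in 49.6% of all tested genes. The 12 neutrophil markers summed to 388700 to 418200 CPM in NTB, 262400 to 346200 CPM in vehicle and 250900 to 347400 CPM in BRQ mice, none of them at 0. Of 13 marker lists, 6 were higher and 2 lower in every vehicle than in every NTB mouse. In NTB and vehicle mice the basophil/mast/eosinophil markers summed to 108.0 to 142.4 and 299.2 to 496.7 CPM, the monocyte/MDP markers to 22.2 to 50.6 and 78.9 to 149.1 CPM, and the B cell markers to 152.6 to 160.3 and 240.4 to 344.7 CPM. The GMP, erythroid/MEP and pro/pre-B sums were also higher, and the macrophage markers were lower, at 62.1 to 69.2 and 14.3 to 53.3 CPM. Up to 7 of the 8 B cell, 5 of the 10 basophil/mast/eosinophil, 3 of the 8 monocyte/MDP and 7 of the 8 macrophage markers were at 0 in a mouse, and the part of these lists in the results of the class was not tested.

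These values come from different clusters in the different groups. Cluster 0, with a median of 1653 UMIs per cell and led by Wfdc17, Retnlg, S100a6, Il1b and Cxcr2, held 10.3%, 9.35% and 5.97% of the neutrophil-like cells of the NTB mice, 73.2%, 86.4% and 90.9% in vehicle mice and 56.5%, 53.4% and 80% in BRQ mice. Clusters 4 and 7, led by granule genes such as Ltf, Lcn2 and Camp, held the rest. The median UMI count per neutrophil-like cell was 5528 to 6308 in NTB, 1552 to 1827 in vehicle and 2571.5 to 3040.5 in BRQ mice. Kit, the antigen of the enrichment, had a median of 131.9 CPM over mice in cluster 0 and of 9.45 and 11.8 CPM in clusters 4 and 7. In cluster 0, Socs3 averaged 136.9 ± 36.9 CPM over the 8 mice with at least 20 of its cells, against 2.80 ± 3.37 CPM in cluster 4 and 1.62 ± 1.6 CPM in cluster 7. Junb averaged 678.4 ± 125 CPM in cluster 0, 38.5 ± 25.4 CPM in cluster 4 and 9.68 ± 2.28 CPM in cluster 7, in that order. Mcl1, which mature neutrophils need for survival, averaged 1117 ± 101, 170 ± 63.3 and 84.9 ± 21.3 CPM in the same clusters. Only the NTB mice of pools 2 and 3 had enough cells of cluster 0, as that of pool 1 had 9. In these mice, whose cluster 0 held 36 and 52 cells, Socs3 was at 117.2 and 90.8 CPM and Pim1 at 535.7 and 333.0 CPM there. Vehicle mice gave 139.9, 198.3 and 182.5 CPM of Socs3 and 647.2, 498.3 and 627.4 CPM of Pim1 in cluster 0, so Pim1 overlapped between the groups and Socs3 did not. In cluster 4, Pim1 of the NTB mice was at 33.7, 52.8 and 55.5 CPM, below the 133.4 and 122.1 CPM of the vehicle mice of pools 1 and 3. No cluster of the class had 20 cells in every mouse, so these levels are given without a test, and a change in the mix of clusters and a change within cells cannot be told apart in the class as a whole.

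**Figure D4:**
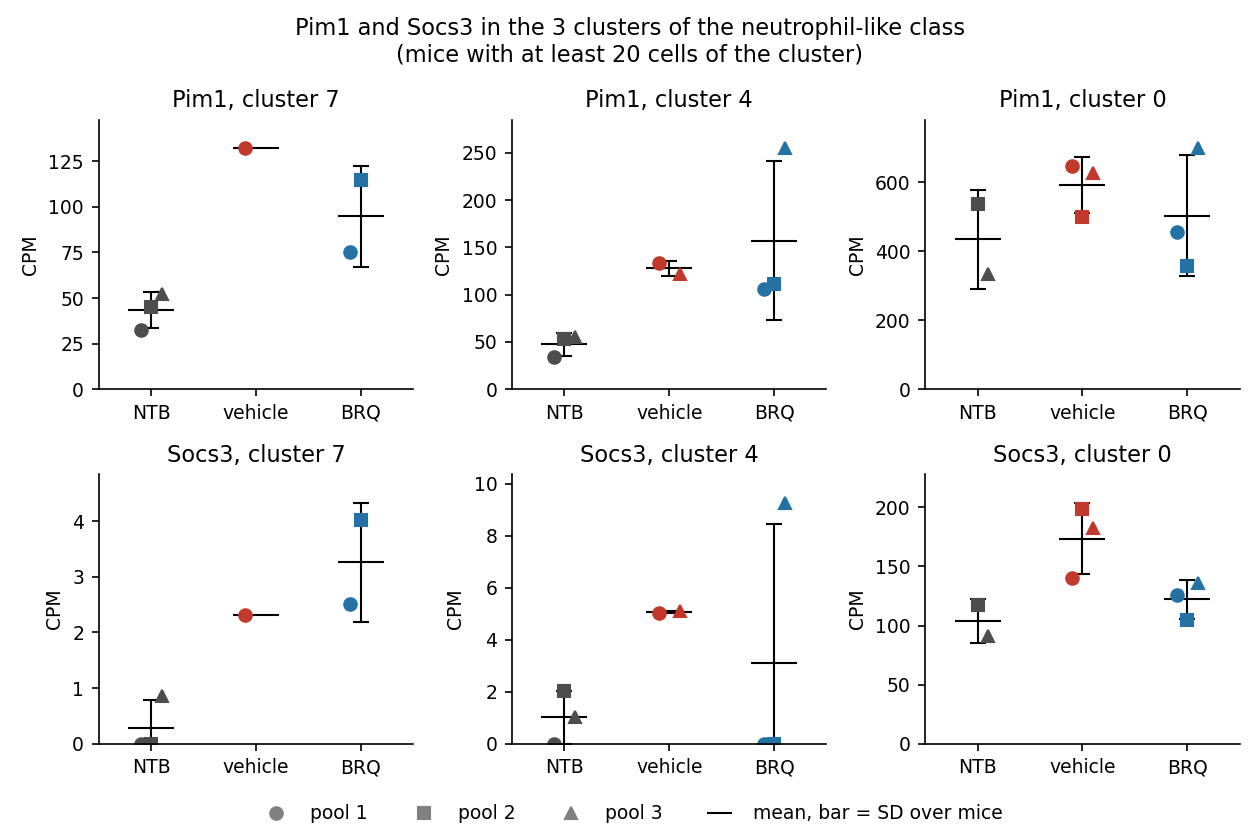
CPM of Pim1 (upper row) and Socs3 (lower row) in clusters 7, 4 and 0 of the neutrophil-like class, for each mouse with at least 20 cells of the cluster, with the mean and SD. Socs3 lies between 90.8 and 198.3 CPM in cluster 0 in all groups and below 10 CPM in clusters 4 and 7, and the axes differ between panels.

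Under brequinar, 0 of the 6 genes were called against vehicle in neutrophil-like cells with edgeR and 0 with DESeq2, and 0.117% of all tested genes were called. An unadjusted p under 0.05 was found for 3 of the 6 genes and for 1045 of all 7700 tested genes. With the pool as a block 1 was called, Socs3 (log2 fold change -1.08, adjusted p = 0.0422), with 2.14% of all tested genes. With low counts kept 2 of 10 were called, Socs3 (-1.01, adjusted p = 0.00107) and Junb (-0.71, adjusted p = 0.0238), with 2.17% of all genes, and without vehicle mouse 1 Socs3 was called (-1.41, adjusted p = 0.0372). BRQ mice gave 31.9, 29.6 and 81.1 CPM of Socs3 and 179.7, 182.7 and 480.7 CPM of Pim1, the mouse of pool 3 being the highest in both. The log2 fold change of Pim1 was -0.47 (95% interval -1.13 to 0.19, adjusted p = 0.509), and within pools Pim1 in BRQ was 0.52, 0.53 and 1.02 times vehicle. Without the BRQ mouse of pool 3, 5 of the 6 genes were called lower in BRQ than in vehicle, with 10.4% of all tested genes called: Socs3 (-1.66), Junb (-1.12), Pim1 (-1.11, adjusted p = 0.00049), Bcl3 (-1.11) and Mcl1 (-1.01), and Stat3 was not (-0.51, adjusted p = 0.0573). That mouse also had the largest share of cluster 0 among BRQ mice, as given above, and an erythroid marker sum of 333.7 CPM in the class, against 28.3 to 61.0 CPM in the other mice, and the part of either in its levels was not tested. Against NTB all 6 genes were higher in BRQ, with 19.3% of all tested genes called and log2 fold changes from 1.02 for Stat3 to 4.09 for Socs3, Bcl3 and Socs3 being tested on the same terms as above. Of 13 marker lists in the class, 4 were higher and 2 lower in every BRQ than in every NTB mouse, among them the basophil/mast/eosinophil markers at 248.4 to 519.1 against 108.0 to 142.4 CPM. The T/NK markers, up to 8 of 10 at 0, were higher in every BRQ than in every vehicle mouse, at 227.2 to 280.7 against 125.9 to 167.5 CPM, and the part of these lists was not tested.

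Summed over all singlets, where a level mixes the kinds of cells with the RNA in each, all 10 genes could be tested and 5 were called higher in vehicle than in NTB, against 31.2% of all tested genes. They were Socs3 (log2 fold change 2.84, SE 0.49), Bcl3 (1.55, SE 0.20), Junb (1.38, SE 0.17), Pim1 (1.16, SE 0.25) and Mcl1 (0.48, SE 0.10). Between BRQ and vehicle 2 of the 10 were called, both lower in BRQ, against 4.07% of all tested genes. Mcl1 was at 91.0, 92.2 and 101.7 CPM in BRQ mice and 110.8, 125.6 and 147.7 CPM in vehicle mice (log2 fold change -0.43, SE 0.10, adjusted p = 0.0288). Junb was at 32.8, 28.8 and 39.2 CPM against 41.0, 66.2 and 61.0 CPM (log2 fold change -0.71, SE 0.16, adjusted p = 0.0297). Both calls were lost when any of 5 mice was left out, namely NTB mouse 2, vehicle mouse 2 or 3 and BRQ mouse 1 or 2 (adjusted p from 0.0515 to 0.132). Pim1 measured 126.6, 127.2 and 263.5 CPM in BRQ mice and 209.5, 143.4 and 203.7 CPM in vehicle mice (log2 fold change -0.12, adjusted p = 0.853). Without the BRQ mouse of pool 3 the difference in Pim1 was -0.56 and was not called (adjusted p = 0.0636), while 4 genes, Mcl1, Junb, Bcl3 and Socs3, were called lower, with 2.73% of all tested genes called. Socs3 joined Mcl1 and Junb with the pool as a block (-1.07, adjusted p = 0.0195, with 9.1% of all tested genes called), with DESeq2 (-1.11, adjusted p = 0.047), when low counts were kept (-1.02, adjusted p = 0.0371) and without vehicle mouse 1 (-1.44, adjusted p = 0.0412). Between BRQ and NTB, 4 of the 10 genes were called higher, Socs3, Bcl3, Pim1 and Junb, against 22.7% of all tested genes. With hashtags called by tag ratio 3 were called, against 34.1%. Without NTB mouse 2, NTB mouse 3 or BRQ mouse 3, 2 were called, against 14.2%, 11% and 13.4%. Over the alternatives the calls of Junb and Socs3 were each lost in 3 and that of Pim1 in 1. Cish, Socs1, Socs2 and Pim2, with at most 123 counts in any mouse, were not called in any comparison over all singlets.

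**Figure D5:**
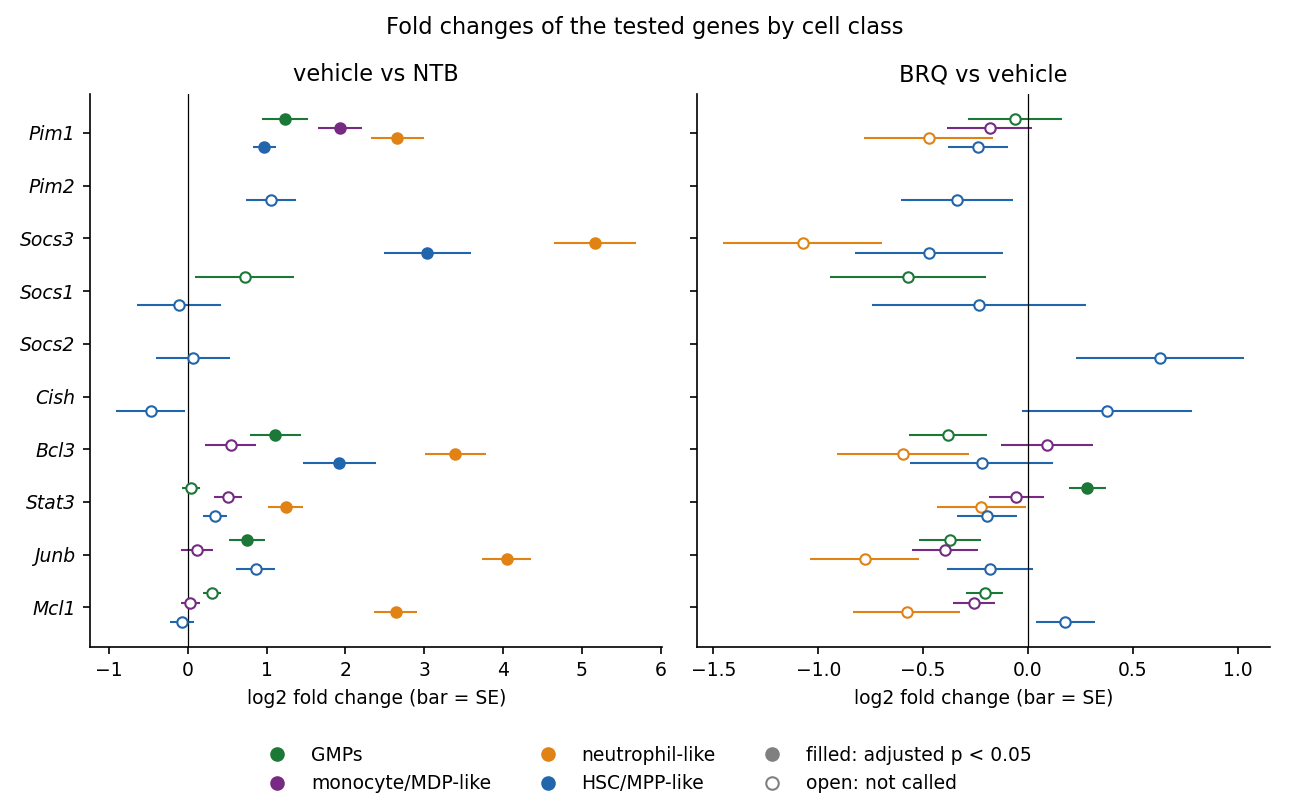
Log2 fold changes with their SE for each tested gene in GMPs, monocyte/MDP-like, neutrophil-like and HSC/MPP-like cells, for vehicle against NTB (left) and BRQ against vehicle (right), filled where called. Pim1 is filled in all 4 cell types on the left and in none on the right, where Stat3 in GMPs (0.28) is the filled point.

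Pim1 under the tumor was compared between cell types directly. Whether the rise differed between cell types was tested within mice, by the per-mouse difference in log2 CPM between neutrophil-like cells and GMPs (limma). The rise of Pim1 was larger in neutrophil-like cells than in GMPs by 1.36 on the log2 scale (SE 0.27, adjusted p = 0.00947). Of the 5 genes that could be compared, Junb (3.04, SE 0.42), Mcl1 (2.36, SE 0.32) and Stat3 (1.22, SE 0.23) were also called, where 27.7% of all tested genes were called, and Bcl3 was not (1.39, SE 0.79, adjusted p = 0.204). The clusters that make up the neutrophil-like class differ between the groups, as described. For BRQ against vehicle the same test called 0 of the 5 genes and 0% of 7468 genes, of which 1174 had an unadjusted p under 0.05, Stat3 among them, and the difference for Pim1 was -0.49 (SE 0.27, adjusted p = 0.394), or -0.55 without the BRQ mouse of pool 3 (adjusted p = 0.347). Between monocyte/MDP-like cells and GMPs, the rise of Pim1 under the tumor differed by 0.77 (SE 0.15, unadjusted p = 0.000755 by limma, adjusted p = 0.236) and was not called, where 0% of 9287 tested genes were called and 1091 had an unadjusted p under 0.05. For BRQ against vehicle the difference for Pim1 between these classes was -0.20 (SE 0.15, adjusted p = 0.962), or -0.23 without the BRQ mouse of pool 3 (adjusted p = 1), with 0% of genes called in the comparison of all mice and with 490 at an unadjusted p under 0.05.

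The other genes of the pathway in GMPs are read against the 11.3% of all tested genes that were called between vehicle and NTB. Of 14 tested cytokine receptors, 1 was higher and 2 were lower in vehicle than in NTB. Csf2rb, the shared beta chain of the GM-CSF, IL-3 and IL-5 receptors, rose from 38.5 ± 10.9 to 80.4 ± 11.4 CPM (n = 3 each), a log2 fold change of 0.97 (adjusted p = 0.0183), though it has a near-identical paralog, Csf2rb2, with which it can share reads. Il6ra, the IL-6 receptor alpha chain, fell by 0.93 (adjusted p = 0.0458) and Ifngr1, the ligand-binding chain of the interferon gamma receptor, by 0.33 (adjusted p = 0.0222). None of the 10 JAK and STAT genes and none of the 16 other negative regulators (other SOCS, PIAS, phosphatase and Cbl genes, Sh2b3 and Pim3) was called, the 10 with a median log2 fold change of -0.17 and the 16 with one of -0.11. Of 19 tested other STAT3 targets 2 were called, a share near that of all tested genes, and both were higher: Lrg1, a secreted glycoprotein of granulocytes, by 0.40 (adjusted p = 0.015) and Cebpb, a factor of emergency granulopoiesis, by 0.36 (adjusted p = 0.0174). None of 8 other STAT5 targets was called. Of 11 immediate early and stress genes, the heat-shock genes Hspa1b (2.63, adjusted p = 0.0047) and Hspa1a (3.17, adjusted p = 0.0111) were called, with mean levels of 8.06 and 3.37 CPM in vehicle and at most 5 and 1 counts in an NTB mouse. Hspa1a was thus under the low-count cutoff of 1.89 CPM in every NTB mouse. It was tested only because it was high in tumor-bearing mice, so its call is not read as support. Hspa1a and Hspa1b are near-identical copies that can share reads, so the split between them is uncertain. The 13 cytokine genes were all below the filter.

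Under brequinar, 2 of the 14 tested receptors were called against vehicle in GMPs, both higher, a share near the 13.4% of all tested genes that were called. Il6ra went from 4.81 ± 0.666 to 9.52 ± 1.57 CPM (log2 fold change 0.90, adjusted p = 0.00478) and Il2rg, the common gamma chain, from 6.05 ± 0.964 to 11.5 ± 1.14 CPM (0.82, adjusted p = 0.00161). Stat5a was higher by 0.35 (adjusted p = 0.0465), the 1 call among the JAK and STAT genes other than Stat3. Lrg1 and Cebpb were lower than in vehicle, by -0.47 (adjusted p = 0.000485) and -0.30 (adjusted p = 0.0233). Lrg1 measured 60.3, 59.4 and 62.5 CPM in BRQ mice, 85.3, 84.0 and 83.3 CPM in vehicle mice and 55.6, 70.3 and 63.6 CPM in NTB mice, so the BRQ mouse of pool 3 lay with the other BRQ mice for this gene. Fgl2 was higher by 0.37 (adjusted p = 0.00489), and Hspa1a and Hspa1b were lower by -1.61 and -1.01. Csf2rb gave 58.5, 53.2 and 113.7 CPM in BRQ mice, the highest value again in the mouse of pool 3. None of the other negative regulators or STAT5 targets was called between BRQ and vehicle. The 12 neutrophil markers summed to 47110 to 50530 CPM in the GMPs of NTB mice, 33950 to 37680 CPM in vehicle and 26790 to 38070 CPM in BRQ mice, none at 0. The 10 HSC/MPP markers, of which up to 5 were at 0 in a mouse, summed to 63.3 to 82.2 CPM in NTB, 63.2 to 70.9 CPM in vehicle and 121.2 to 144.5 CPM in BRQ mice. Of 13 marker lists, 7 were lower in every vehicle than in every NTB mouse and 7 were higher in every BRQ than in every vehicle mouse. The 8 monocyte/MDP markers, up to 2 of them at 0, summed to 55.1 to 71.5 CPM in NTB, 54.9 to 68.9 CPM in vehicle and 99.9 to 151.6 CPM in BRQ mice. The 10 basophil/mast/eosinophil markers, up to 7 at 0, summed to 121.2 to 179.3, 86.1 to 112.4 and 183.4 to 199.9 CPM in the same order. The 10 dendritic cell markers, up to 8 at 0, summed to 32.9 to 47.1, 25.3 to 31.7 and 46.4 to 54.2 CPM. The monocyte/MDP and basophil/mast/eosinophil sums of the BRQ mice lay above those of both other groups, and the dendritic cell sums above those of vehicle. The 8 macrophage markers, up to 2 at 0, summed to 273.4 to 312.6 CPM in NTB, above the 161.2 to 175.1 CPM of vehicle and the 65.6 to 196.9 CPM of BRQ mice. The 8 B cell markers, up to 6 at 0, summed to 175.0 to 202.3 CPM in NTB, 129.9 to 137.6 CPM in vehicle and 139.5 to 166.0 CPM in BRQ mice. The 10 T/NK markers, up to 8 at 0, summed to 1103 to 1343 CPM in NTB, 1018 to 1085 CPM in vehicle and 963.5 to 1118 CPM in BRQ mice. The pro/pre-B and stromal/endothelial lists, the remaining ones without overlap, summed to at most 20.7 CPM in a mouse. The part of these differences in the results for the 10 genes was not tested.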

How the data were processed

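Single-cell RNA libraries (10x Genomics 3′ chemistry) and their hashtag libraries were made for 3 pools. The deposited matrices hold whole-number counts of UMIs (unique molecular identifiers, 1 per captured RNA molecule), by gene and barcode, as the authors' pipeline gave them. The submitters' processing notes name Cell Ranger 6.0.0, Seurat and mm10, and the positions used here are from GRCm38. Barcodes with over 15% mitochondrial counts, or under 500 or over 7500 detected genes, were removed. The study words these limits in transcripts, and reading them as UMIs was an alternative. Singlets were called with HTODemux (Seurat 5.3.0, quantile 0.99). Scrublet marked doublets, which were left out in an alternative. Clusters were found with scanpy 1.11.5 (2000 variable genes without the 10 members, 30 components, 20 neighbors, Leiden resolution 0.8, seed 1) and named from marker lists if at least 3 markers were detected. GMPs had ln(1 + Ms4a3 UMIs per 10000) over 3. Counts were summed per mouse, and a class was tested if every mouse had at least 20 cells of it, except that HSC/MPP-like cells were compared over the 8 mice that had as many. The study's Ms4a3 cut is on scaled values of annotated cells, a different scale.

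Sums were compared with edgeR 4.0.16 (TMM, filterByExpr, quasi-likelihood, two-sided, 9 mice in 1 fit, Benjamini-Hochberg over all tested genes, called under 0.05), whose log2 fold changes include a small prior count. Normalised CPM are CPM after TMM scaling, and levels over classes and clusters are plain CPM. The 95% intervals come from the SE of the fit. The study's methods test single cells, and sums per mouse were used here because cells of 1 mouse are not replicates. DESeq2 1.42.0 and the alternatives of the closing section were run beside it, and differences between classes were tested with limma 3.58.1 (prior count 2). R 4.3.3 and Python 3.11.15 were used. The code was tested on simulated data. The members and lists were chosen with earlier results of these data known. All 10 members are named throughout, and from each other list up to 4 called genes with the smallest adjusted p per GMP comparison of vehicle with NTB and BRQ with vehicle. The result of 1 further list is not reported here. For Pim1, the 5 genes with the highest Pearson r over classes are named.

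The mice of a pool are paired by the labels, since 1 sample of each group was pooled and run together. In GMPs, log2 values centered per group correlated between mice of the same pool with a median r of 0.09 (9 pairs, lowest -0.02) and between pools with -0.05 (18 pairs). The main fit has no pool term, and the pool was added as a block in an alternative.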

Additional observations from a re-analysis of the deposited data

Results flagged for a closer look

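The effect of the tumor differed between neutrophil-like cells and GMPs for 4 of the genes that passed the low-count filter in both. The test was of the difference itself within each mouse (limma, adjusted over 7468 genes, of which 27.7% were called). Bcl3, which also passed, was not called (adjusted p = 0.204). The rise from NTB to vehicle was larger in neutrophil-like cells by 3.04 on the log2 scale for Junb (adjusted p = 0.00232), by 2.36 for Mcl1 (adjusted p = 0.00222), by 1.36 for Pim1 (adjusted p = 0.00947) and by 1.22 for Stat3 (adjusted p = 0.00801). In neutrophil-like cells Pim1 rose from 62.7 ± 4.99 to 387.7 ± 73.1 CPM (n = 3 each), against 54.2 ± 13.3 to 128.7 ± 27.3 CPM in GMPs. The share of neutrophil-like cells in cluster 0 was 5.97% to 10.3% in NTB mice and 73.2% to 90.9% in vehicle mice, and its part in the difference was not tested.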

How the results depend on the processing

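Pim1 in GMPs stayed higher in vehicle than in NTB in every setting, with a log2 fold change of 1.24 under DESeq2 (adjusted p = 0.057) and 1.88 with the cell limits read as UMIs (adjusted p = 0.275), neither called, and between 1.116 and 1.42 with 1 mouse left out, where the call was lost without NTB mouse 2 (adjusted p = 0.0505). For BRQ against vehicle, Pim1 in GMPs turned to 0.013 and 0.02 in GMP-like clusters 2 and 3 alone, and with 1 mouse left out ranged from -0.63 (without BRQ mouse 3, called) to 0.16 (without BRQ mouse 2). It was 0.021, 0.005 and 0.146 without vehicle mouse 1, vehicle mouse 3 and BRQ mouse 1. The same mice moved this difference in GMP-like cells (-0.61 to 0.16, with 0.03 without vehicle mouse 1 and 0.15 without BRQ mouse 2), monocyte/MDP-like cells (-0.80 to 0.042) and all singlets (-0.56 to 0.081, with 0.073 without BRQ mouse 2). The number of genes called in GMPs, 3 for vehicle against NTB, was 0 of 3 tested with limits in UMIs, where 0% of 3229 genes were called, and 0 to 3 with 1 mouse left out, where 4.96% to 15.1% of all tested genes were called. For BRQ against vehicle, 1 was called, against 0 under DESeq2, with limits in UMIs, with an Ms4a3 limit of 2.5 and in clusters 1 or 2 alone, and 0 to 3 with 1 mouse left out (all tested genes: 0% with limits in UMIs, otherwise 6.98% to 14.8%). For BRQ against NTB, 1 was called, against 0 under DESeq2 and with limits in UMIs, 3 in GMP-like cells and 0 to 1 with 1 mouse left out (all tested genes: 0.0619% with limits in UMIs, otherwise 2.09% to 10.4%). Over all singlets, leaving out 1 mouse gave 0 to 4 calls for BRQ against vehicle, with 1.1% to 5.24% of all tested genes called. The main fit gave 2 (4.07%), DESeq2 3 (6.14%) and the fit with low counts kept 3 (3.87%). For BRQ against NTB, leaving out 1 mouse gave 2 to 4 calls (11% to 23.9%). The main fit gave 4 there (22.7%), and hashtags called by tag ratio gave 3 (34.1%). In GMP-like, monocyte/MDP-like and neutrophil-like cells together, 1 gene was called for BRQ against vehicle, where 13.2%, 5.45% and 0.117% of all tested genes were called. With low counts kept 3 were called (8.67%, 3.54% and 2.17% of all genes in the same order). With 1 mouse left out 0 to 10 were called (5.94% to 14.5%, 2.38% to 5.23% and 0% to 10.4%). The 10 came without BRQ mouse 3 (14.5%, 4.83% and 10.4%).

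With the pool as a replicate block, Pim1 in GMPs gave 1.29 and -0.14 for vehicle against NTB and BRQ against vehicle. The block gave 2 called genes in GMPs for BRQ against vehicle, 2 for BRQ against NTB and 4 in the 3 classes for BRQ against vehicle. It also raised the share of all tested genes called, from 13.4% to 20.4% and from 6.01% to 11.8% in GMPs, and for BRQ against vehicle from 13.2% to 21.2% in GMP-like, 0.117% to 2.14% in neutrophil-like and 5.45% to 8.47% in monocyte/MDP-like cells. Beside those in the report, it called Bcl3 (-0.43) and Junb (-0.31) lower in BRQ than in vehicle in GMP-like cells and Stat3 higher in BRQ than in NTB over all singlets (0.24), and among the 10 genes it changed no other call in these units. Differences not called with all mice changed sign in a few settings. These were, in GMPs, Junb for BRQ against NTB in cluster 1 (-0.03), Mcl1 for BRQ against NTB with hashtags called by tag ratio (-0.049), with an Ms4a3 limit of 2.5 (-0.035) and in cluster 2 (-0.014), Stat3 for vehicle against NTB with that Ms4a3 limit (-0.057), in cluster 3 (-0.14) and with 1 mouse left out (-0.023 to 0.091), and Socs1 for BRQ against NTB with 1 mouse left out (-0.46 to 2.20).

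The 4 genes below the filter in GMPs had at most 28 counts in a mouse, and the fewest GMPs of a mouse were 88, which limits what can be seen there. A test of the difference between HSC/MPP-like cells and GMPs was not run because the vehicle mouse of pool 2 had 10 HSC/MPP-like cells, and in HSC/MPP-like cells BRQ mouse 3 was the 1 mouse left out, an alternative chosen after seeing the data. With 3 mice a group, intervals cover the spread between these mice and counting error.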
